A study of Bos taurus with 18 samples.

Results

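Fibroblast growth factor (FGF) signalling is described here through 10 genes, followed in bovine oocytes and embryos from the immature oocyte to the blastocyst. They were listed by name, and all 10 were found among the 21668 genes of the deposited expression table. FGF4 and FGF2 encode ligands, FGFR1, FGFR2, FGFR3 and FGFR4 the receptor tyrosine kinases, SPRY2, SPRY4 and DUSP6 inhibitors of the pathway, and ETV5 a transcription factor of its target genes.

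FGF ligands bind their receptors together with heparan sulfate, and the activated receptors signal through adaptors to RAS and the kinases RAF, MEK and ERK. ERK activity induces Sprouty proteins and the phosphatase DUSP6, which dampen the pathway, and transcription factors of the ETV group. In the mouse blastocyst, FGF4 from the epiblast directs neighbouring inner cells towards the hypoblast, and FGF4 maintains the trophoblast.

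The 18 libraries held 3 pools of 10 oocytes or embryos for each of 6 stages. Germinal vesicle (GV) oocytes are immature, and metaphase II (MII) oocytes had matured in vitro. Both were denuded oocytes of the German Simmental breed from abattoir ovaries. The 4-cell, 8-cell and 16-cell embryos and the blastocysts were produced in vitro with sperm of a Zebu bull and are labelled German Simmental x Brahman. Breed and stage therefore cannot be told apart between MII oocytes and 4-cell embryos, nor between GV oocytes and blastocysts. A pool mixes the cell types of its embryos, so fewer cells of a type and less RNA per cell cannot be told apart. The labels do not say whether pools of a stage came from separate collections, and p-values measure the spread between these pools.

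Between 2438473 and 11971840 reads per library fell in genes, and 11970 to 15399 genes had reads. The fewest genes were detected in 16-cell replicate 1 and 8-cell replicate 2 (11970 and 12393), which had 7456788 and 10062355 reads. The summed level of 8 oocyte markers ran from 67264 to 94007 scaled counts in GV oocytes and from 90.0 to 175 in blastocysts. That of 9 trophectoderm markers stayed between 844 and 2292 up to the 16-cell stage and reached 28039 to 60416 in blastocysts. Sums of 7 hypoblast and 7 epiblast markers were 69854 to 112189 and 9660 to 9869 in blastocysts, against 4524 to 8053 and 9633 to 16959 in 16-cell embryos. FN1 made up 91.2% of the hypoblast sum in blastocysts. From 16 cells to blastocyst mean FN1 went from 965 to 82419, GATA6 from 1490 to 3924, HNF4A from 0 to 298 and COL4A2 from 130 to 214. Mean GATA4 went from 60.7 to 13.3, PDGFRA from 3500 to 3461 and SOX17 from 0 to 0.365. ZFP42 made up 55.7% of the epiblast sum in blastocysts. Over the same step mean ZFP42 went from 3068 to 5451, POU5F1 from 472 to 2441 and SOX2 from 138 to 189. Mean KLF4 went from 7655 to 1514, NANOG from 1537 to 168, LIN28B from 79.9 to 28.8 and TDGF1 from 3.71 to 0.989. Of 20 genes of cumulus and granulosa cells, which surround the oocyte, FOXL2 had 0 reads at every stage before the blastocyst. In GV oocytes LHCGR, TNFAIP6 and COL1A1 also had 0 reads, while STAR (36.7% of the sum), VCAN (18.7%), HAS2 (16.1%) and PTGS2 (15%) led. In 16-cell embryos LUM (35.9%), VIM (15.5%), VCAN (11.2%) and COL1A1 (9.61%) led. Mean CYP19A1, INHA and FSHR were 6.02, 6.19 and 1.86 at that stage. The sum of the 20 genes was 3662 to 5444 in GV oocytes, 892 to 5566 in 16-cell embryos and 7736 to 17807 in blastocysts, where PTGS2 alone made up 86.9% of it.

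Levels are given as scaled counts, the number of reads divided by the library's size factor, so that 1 read was worth 0.563 to 2.82 scaled counts. They are comparable between libraries for 1 gene, not between genes, whose lengths differ. Differences are those of mean variance-stabilised values (log2-like) ± SE from limma, each with a Benjamini-Hochberg adjusted p over all 17138 genes tested, and a gene rose or fell where this p was under 0.05. The SE pools the spread over all stages, so for a gene at 0 in every library of some stages it is drawn in part from groups with no spread. FGF4 had reads in 2 libraries and missed the filter of reads in at least 3, so 9 of the 10 genes were tested.

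None of the 9 tested genes passed between consecutive stages up to the 8-cell embryo, and their changes that passed came from the 16-cell stage on. SPRY4 rose and FGF2 fell at the 16-cell stage, and FGFR2 and FGFR3 rose and ETV5 fell in blastocysts. Over all 6 stages, 6 of the 9 tested genes differed by the limma F test (FGF2, FGFR2, FGFR3, FGFR4, SPRY4 and ETV5), where 67% of all tested genes did. FGFR1, SPRY2 and DUSP6 did not pass (adjusted p = 0.58, 0.17 and 0.92). FGFR2 no longer passed without 16-cell replicate 1 (adjusted p = 0.085) or with array weights (0.083).

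**Figure D1:**
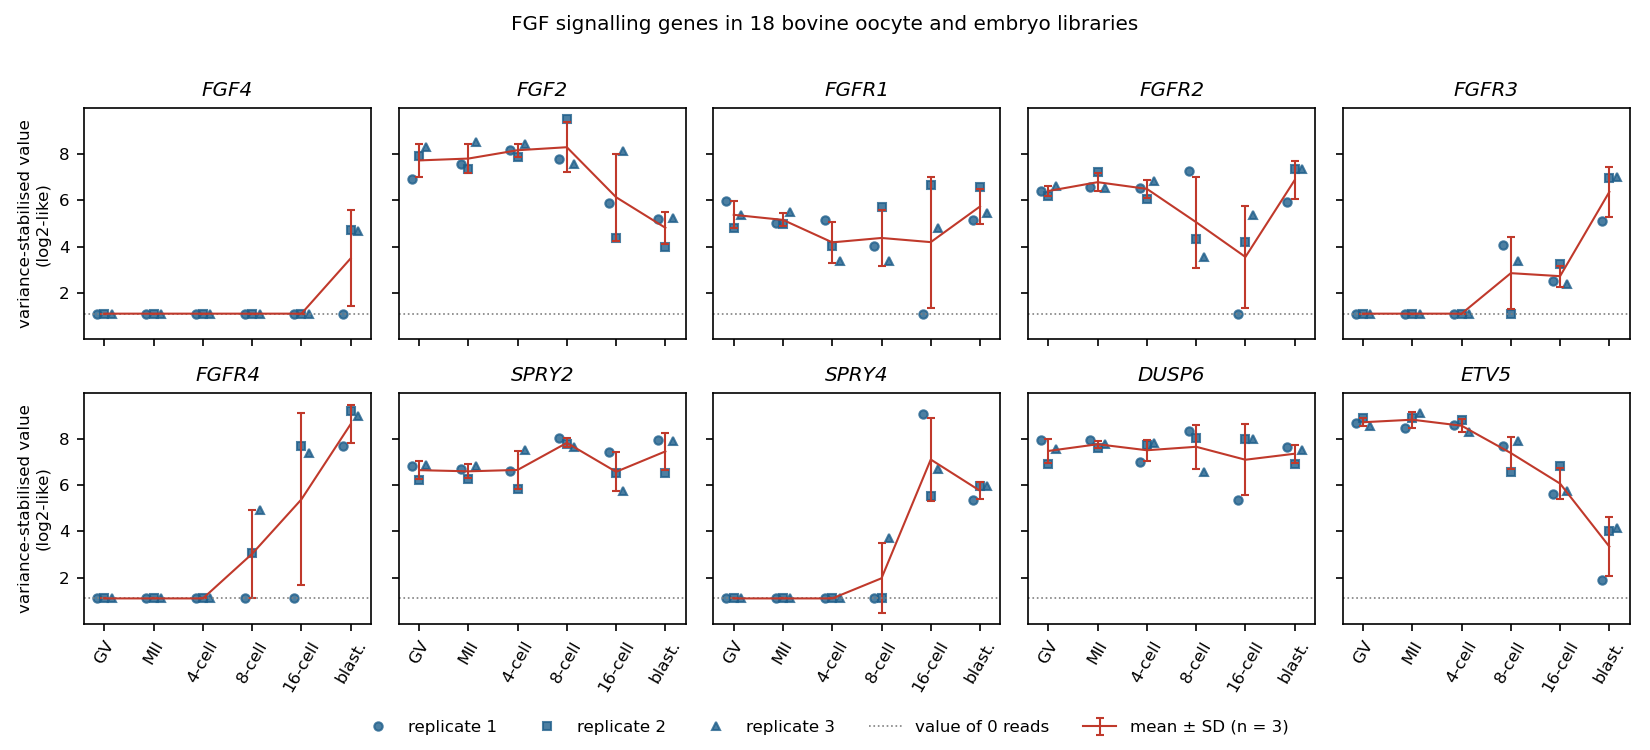
Variance-stabilised values (log2-like, vertical axis) of the 10 FGF signalling genes at 6 stages (horizontal axis). Blue symbols are single libraries, red lines join stage means with their SD (n = 3), and the dotted line is the value of 0 reads. SPRY4, FGFR3, FGFR4 and FGF4 lie on the dotted line in all oocyte and 4-cell libraries, while ETV5 is lowest in blastocysts.

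Stage by stage, 0 of 9 genes changed between GV and MII oocytes by limma, with 0 at an unadjusted p under 0.05 and 0 by voom, where 0.712% of all tested genes changed (0.0992% rose and 0.613% fell). The same counts were 0, 0 and 0 between MII oocytes and 4-cell embryos, against 0.794% of all tested genes (0.0642% up and 0.729% down). Between 4-cell and 8-cell embryos 0 of 9 passed limma, 2 had an unadjusted p under 0.05 (FGFR3 and SPRY2) and voom called 0, against 12.8% of all tested genes (8.64% up and 4.13% down). At the 16-cell stage 1 rose and 1 fell, where 14.8% and 16.3% of all tested genes did, 31.1% in all. In blastocysts against 16-cell embryos 2 rose and 1 fell (18.2% and 13.1% of all tested genes, 31.3% in all). Blastocysts set against GV oocytes gave 3 rises (FGFR3, FGFR4 and SPRY4) and 2 falls (FGF2 and ETV5), where 25.6% and 20.4% of all tested genes rose and fell, 45.9% in all. The median difference of the 9 genes was -0.55 at the 16-cell stage and 0.88 in blastocysts against 16-cell embryos, beside 0.00 and 0.18 over all tested genes. With so few genes tested, these shares do not set the FGF genes apart from the rest of the table.

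**Figure D2:**
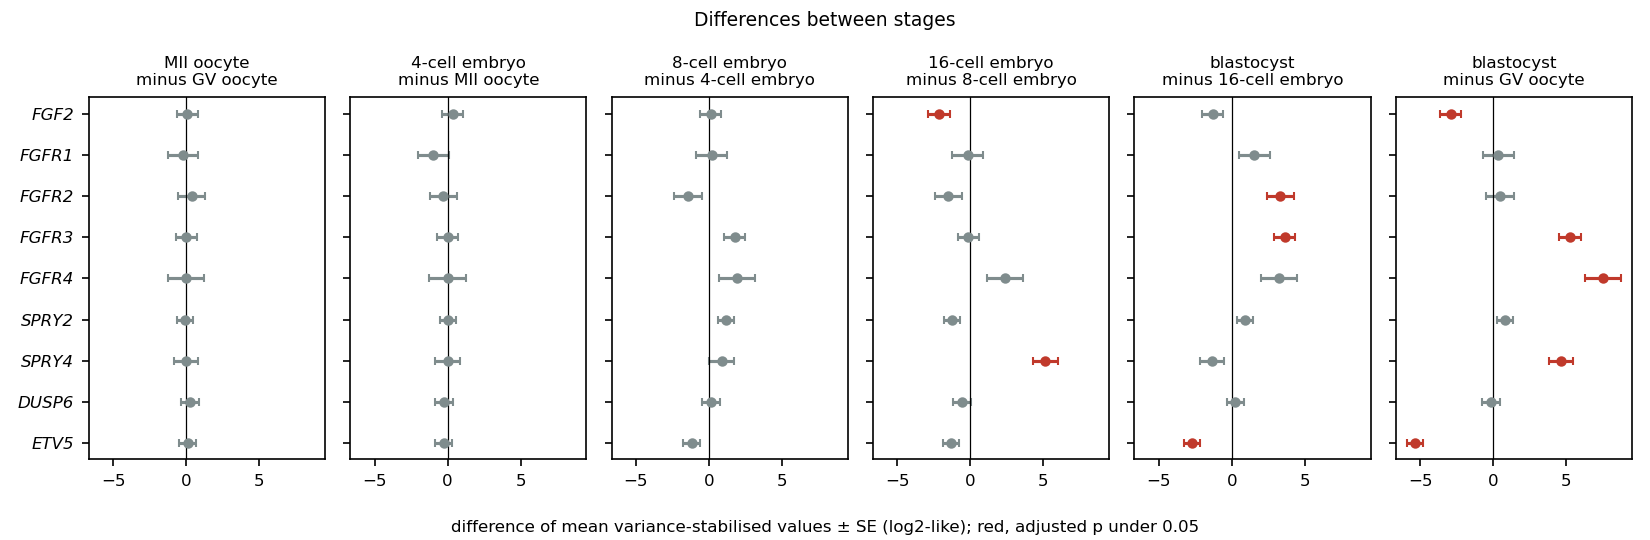
Differences of mean variance-stabilised values (log2-like, horizontal axis, ± SE) of the 9 tested genes (vertical axis) in 6 comparisons of stages, red where the adjusted p was under 0.05. No point is red in the first 3 panels, and SPRY4 lies farthest to the right at the 16-cell stage (5.13) and FGFR4 between blastocyst and GV oocyte (7.53).

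FGF4, the ligand that epiblast cells secrete in the mouse, had 0 reads in all 15 libraries before the blastocyst. The 3 blastocyst pools had 0, 21.9 and 21.3 scaled counts in order of replicate, 42 reads in all, so its detection was divided within the stage. Their mean of 14.4 ± 12.5 (SD, n = 3) was at least 8.56-fold higher than in 16-cell embryos, counted against a floor of 3 reads over the 3 libraries of that stage. With every other library at 0, no test is given for it. The blastocyst pool without FGF4 reads, replicate 1, was the deepest of its stage with 11203818 reads, and its 0 reads allow up to 2 scaled counts. This pool was also the lowest of its stage for FGFR1, FGFR2, FGFR3, FGFR4, SPRY4 and ETV5. For SPRY2 and DUSP6 it was the highest, and for FGF2 it lay between the other pools. The part of this library difference in the FGF values was not tested. The epiblast marker sum of replicate 1 was 9869, against 9848 and 9660 in the other pools. Single markers in this sum varied between the blastocyst pools. ZFP42 had 5451 ± 1076, POU5F1 2441 ± 1125, KLF4 1514 ± 192, SOX2 189 ± 90.6 and NANOG 168 ± 128 (mean ± SD). The part of epiblast content in the FGF4 values was not tested.

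FGF2, a ligand that binds several FGF receptors, was present in every library and was lowest in blastocysts. GV oocytes had 118, 237 and 314 scaled counts, MII oocytes 184, 157 and 361, and 4-cell embryos 284, 231 and 343. These 3 stages overlapped. The 8-cell pools had 217, 725 and 185, the 16-cell pools 53.9, 16.9 and 275, and the blastocysts 32, 12.1 and 33.9. Replicate 2 was thus the highest of the 8-cell pools and the lowest of the 16-cell pools, and the ranges of both stages overlapped. From 376 ± 303 to 115 ± 139 (SD, n = 3), FGF2 fell at the 16-cell stage (difference -2.16 ± 0.73, adjusted p = 0.03). This call was lost without 8-cell replicate 2 (-1.55, adjusted p = 0.16), without 16-cell replicate 1 (-2.03, 0.067) and without 16-cell replicate 2 (-1.30, 0.18), as well as with array weights (0.11). The 3.26-fold lower mean became 1.74-fold without 8-cell replicate 2 and 10.6-fold without 16-cell replicate 3. Blastocysts, all below the GV oocytes as for 25% of all tested genes, had 8.58 times less than these (26.0 ± 12.1 against 223 ± 99.0, difference -2.91 ± 0.73, adjusted p = 0.0027). The oocyte marker sum was 67264 to 94007 in GV oocytes and 90.0 to 175 in blastocysts. Up to the 8-cell stage the mean courses differed. The mean sum was 84580, 73709, 57923 and 43174 in GV oocytes, MII oocytes, 4-cell and 8-cell embryos. Mean FGF2 was 223, 234, 286 and 376 at these stages, with no step passing. The part of the oocyte RNA in the change of FGF2 was not tested.

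The 4 receptors followed 2 courses: FGFR1 and FGFR2 had reads from the GV oocyte on, and FGFR3 and FGFR4 had 0 reads in all 9 libraries of GV oocytes, MII oocytes and 4-cell embryos. FGFR1 ranged from 23.3 to 57.8 scaled counts in GV oocytes and from 31.3 to 90.9 in blastocysts and passed in no comparison. Its 16-cell pools spread widely, with 0, 96.0 and 24.1. At that stage the mean scaled count was above that of 8-cell embryos (40.0 against 22.3), while the difference of variance-stabilised values was -0.18 ± 1.05 (adjusted p = 0.95). Against 16-cell embryos, blastocysts gave 1.54 ± 1.05 (adjusted p = 0.29), which passed without 16-cell replicate 2 (2.77, adjusted p = 0.046) and was -0.01 without 16-cell replicate 1.

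FGFR2, whose epithelial form binds ligands from mesenchyme, had 80.6, 67.8 and 94.6 in GV oocytes, 91.4, 146 and 87.5 in MII oocytes and 88.9, 63.2 and 111 in 4-cell embryos. The 8-cell pools had 150, 16.0 and 7.87 and the 16-cell pools 0, 14.1 and 37.1. Blastocysts had 57.3, 159 and 157, each above all 16-cell pools, as for 21.6% of all tested genes. FGFR2 rose from 17.1 ± 18.7 to 124 ± 58.0 (7.28 times, difference 3.33 ± 0.94, adjusted p = 0.0097), a call lost without 16-cell replicate 1 (4.85 times, 2.10, adjusted p = 0.068). Without 16-cell replicate 3 the rise was 17.6 times. The difference between blastocysts and GV oocytes did not pass (124 ± 58.0 against 81.0 ± 13.4, 0.47 ± 0.94, adjusted p = 0.71).

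FGFR3, a receptor tyrosine kinase known for its role in limiting bone growth, had its first reads in 8-cell embryos, with 12.8, 0 and 6.56 scaled counts. The 16-cell pools held 2.25, 5.65 and 1.86, which are 5 reads in all. Blastocysts had 30.0, 122 and 124, all above every earlier library. Of all tested genes, 21.6% had blastocysts above all 16-cell pools and 31.9% above all GV pools. The share above every earlier library was not computed. The rise from 3.25 ± 2.08 to 91.8 ± 53.6 was 28.3-fold (difference 3.64 ± 0.72, adjusted p = 0.00057) and passed in all 29 alternative analyses, with adjusted p from 3.2e-05 to 0.038. It was 44.8-fold without 16-cell replicate 2. Without 8-cell replicate 2, the pool with 0 reads, FGFR3 also rose at the 8-cell stage (2.63, adjusted p = 0.011, against 1.75 and 0.12 with all pools).

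FGFR4, the receptor for FGF19 in the liver, started at 8 cells with 0, 4.58 and 26.2 scaled counts. The 16-cell pools had 0, 200 and 161, and the blastocysts 200, 588 and 506. Only 16-cell replicate 1 stood at 0 among the later pools, and there 0 reads allow up to 3.37 scaled counts. At 431 ± 205, blastocysts exceeded GV oocytes at least 551-fold, counted against a floor of 3 reads over the 3 GV libraries (difference 7.53 ± 1.24, adjusted p = 4.6e-05). Between consecutive stages FGFR4 missed the threshold, with 2.36 ± 1.24 at the 16-cell stage (adjusted p = 0.16) and 3.24 ± 1.24 in blastocysts (0.052). Without 16-cell replicate 1 it rose at the 16-cell stage (4.50 ± 0.91, adjusted p = 0.0011). With a block for the replicate number, whose pairing of pools was not established, FGFR4 rose in blastocysts (adjusted p = 0.031). It also did so without 16-cell replicate 2 (0.013) or 3 (0.018). All 4 receptors had their highest means in blastocysts, though FGFR1 passed in no comparison with all libraries. So did the trophectoderm sum, led by KRT8 with 43.7%, and the hypoblast sum, of which FN1 was 91.2%. The part of these marker sums was not tested.

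SPRY4, an inhibitor that acts between receptor and RAF, had its first reads at the 8-cell stage. It had 0 reads in all 9 oocyte and 4-cell libraries, which allows up to 0.783, 0.778 and 0.695 scaled counts over the GV, MII and 4-cell libraries. In 8-cell embryos replicate 3 had 9.19 scaled counts, or 7 reads, and the other pools had 0. The 16-cell pools then had 538, 42.4 and 98.4 scaled counts, all above the 8-cell pools, as for 15.4% of all tested genes. Blastocysts had 36.0, 58.1 and 58.1, within a narrower range that overlapped the 16-cell pools. SPRY4 rose 73.9-fold at the 16-cell stage, from 3.06 ± 5.30 to 226 ± 272 (difference 5.13 ± 0.84, adjusted p = 0.00014). Without 16-cell replicate 1 the 16-cell mean was 70.4 and the rise 23-fold. The call held without each single library, and was lost when limma was fitted to the 8-cell and 16-cell libraries only (adjusted p = 0.092). The difference between blastocysts and 16-cell embryos did not pass (-1.35 ± 0.84, adjusted p = 0.24) and blastocysts were at least 64.8-fold higher than GV oocytes (50.7 ± 12.7, difference 4.65 ± 0.84, adjusted p = 0.00012). By mean level SPRY4 was highest at 16 cells, then in blastocysts, then at 8 cells. The 16-cell and blastocyst levels were not told apart by the test, and blastocysts and 8-cell embryos were not compared.

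The 16-cell pool with the most SPRY4, replicate 1, was the one with 0 reads of FGFR1, FGFR2 and FGFR4 and with the least DUSP6 and ETV5 (36.0 and 43.8 scaled counts). Its 170 scaled counts of SPRY2 were the most of that stage, beside 87.5 and 50.1. This library had reads in the fewest genes of all 18, and 892 scaled counts of cumulus and granulosa genes against 4232 and 5566 in the other 16-cell pools. The part of these library differences in the FGF values was not tested.

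SPRY2, the related inhibitor, was present in every library, from 50.1 to 256 scaled counts. It had 97.4 ± 24.4 in GV oocytes, 108 ± 63.6 at 4 cells, 222 ± 30.0 at 8 cells, 102 ± 61.2 at 16 cells and 188 ± 86.8 in blastocysts. The 8-cell pools (256, 213 and 198) lay above all 4-cell pools (92.8, 53.0 and 178) and all 16-cell pools (170, 87.5 and 50.1), as did 13% and, in the second comparison, 16.2% of all tested genes. Neither difference passed (1.17 ± 0.55, adjusted p = 0.2, and -1.24 ± 0.55, adjusted p = 0.095), and the second passed without 16-cell replicate 1 (-1.67, adjusted p = 0.033).

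DUSP6, a phosphatase that inactivates ERK, had the highest F test p of the 9 tested genes. Stage means lay between 162 ± 41.8 in blastocysts and 223 ± 120 in 8-cell embryos, and single libraries between 36.0 and 322. The 6 comparisons gave differences from -0.55 to 0.29, each with an SE of 0.61, and adjusted p from 0.54 to 1. Between 16-cell embryos and blastocysts the mean scaled counts (177 and 162) and the variance-stabilised values (0.25 ± 0.61) moved in opposite directions.

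ETV5, an ETS-family transcription factor downstream of FGF receptors, was highest in oocytes and went down from the 8-cell stage on. GV oocytes had 403, 471 and 372 scaled counts, MII oocytes 342, 475 and 550, and 4-cell embryos 385, 441 and 304. The 8-cell pools had 202, 90.9 and 231, all below the 4-cell pools, as was the case for 12.9% of all tested genes. The 16-cell pools had 43.8, 110 and 50.1, and the blastocysts 0.667, 12.1 and 13.6, below all 16-cell pools, as for 15.5% of all tested genes, and below every other library. The steps to 8 and to 16 cells missed the threshold (-1.18 ± 0.57, adjusted p = 0.2, and -1.32 ± 0.57, adjusted p = 0.084). The second passed without 8-cell replicate 2 (adjusted p = 0.04), without 16-cell replicate 2 (0.041) or without blastocyst replicate 1 (0.033). ETV5 fell 7.77-fold in blastocysts against 16-cell embryos (68.0 ± 36.6 to 8.76 ± 7.05, difference -2.72 ± 0.57, adjusted p = 0.00092), a call lost with only the libraries of these stages in the fit (0.1), and was 47.4 times lower there than in GV oocytes (-5.36 ± 0.57, adjusted p = 1.8e-07). The oocyte marker sum went down over the same stages and its part was not tested.

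Across the 18 libraries, FGFR3 and FGFR4 varied most alike among the 10 genes (Pearson r = 0.82), and ETV5 ran opposite to both (r = -0.81 each) and to SPRY4 (-0.76). SPRY2 and SPRY4 had r = 0.12, and SPRY4 and DUSP6 -0.51. These values describe libraries that fall into stages and share depth, and carry no test. FGFR3, FGFR4 and SPRY4 also share 0 reads in all oocyte and 4-cell libraries, which enters their r. Among 11006 genes with a symbol and a mean of at least 10 scaled counts, over the same 18 libraries, CRISP2 (0.99), LAT (0.97), SPATA13 (0.96), SLC28A2 (0.96) and CD99 (0.95) had the courses most like SPRY4. CRISP2 had 0 scaled counts up to the 4-cell stage, 3.50 at 8 cells, 165 at 16 cells and 95.5 in blastocysts. FBXO10 and MCF2 were most like ETV5 (0.97 each), PCCB most like FGFR2 (0.92) and C5orf28 most like FGF2 (0.93). The closest genes to FGFR1 (ZMYM3, 0.83), DUSP6 (PIGY, 0.81) and SPRY2 (DEM1, 0.80) were less alike.

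Other genes of the pathway were followed in 6 lists with 92 genes, all of them in the table and 82 tested. The counts of these lists carry no test of their own. With only the libraries of both stages in the fit, each list had 0 or 1 calls at 16 cells. The list headed FGF ligands held FGF genes other than FGF4 and FGF2, among them intracellular members such as FGF14. Of its 12 tested genes, 1 rose and 0 fell at 8 cells, and 0 rose and 1 fell at 16 cells. In blastocysts against 16-cell embryos 1 rose and 2 fell. Over all tested genes, 8.64% rose and 4.13% fell at 8 cells, 14.8% and 16.3% at 16 cells, and 18.2% and 13.1% in blastocysts. Against GV oocytes 1 of these 12 genes rose and 5 fell in blastocysts, where 25.6% and 20.4% of all tested genes did. Their median difference was -1.38 beside 0.26 over all tested genes. FGF18 rose at the 8-cell stage from 3.13 ± 2.86 to 136 ± 144 scaled counts (difference 4.05 ± 0.85, adjusted p = 0.0024) and fell in blastocysts from 23.5 ± 18.6 to 0.323 ± 0.559, a single read (adjusted p = 0.0083). FGF16 fell in blastocysts, from 84.2 ± 77.3 to 2.47 ± 2.78 (adjusted p = 0.0083). FGF14, an intracellular member of the family that is listed by locus number, fell at 16 cells from 146 ± 71.4 to 5.00 ± 5.76 (adjusted p = 0.0011). FGF20 went from 31.6 ± 27.3 in GV oocytes to 0 reads in blastocysts (adjusted p = 0.0013).

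Of 14 tested co-receptors and related genes, 0 rose and 3 fell at 16 cells (14.8% and 16.3% of all tested genes). In blastocysts against 16-cell embryos 5 rose and 3 fell (18.2% and 13.1% of all tested genes), with a median difference of 0.60 beside 0.18 over all tested genes. SDC4, a heparan sulfate proteoglycan of the cell surface, rose from 68.5 ± 59.4 to 2286 ± 710 (adjusted p = 0.0017) and GPC1, a glypican, from 1.24 ± 2.14 to 131 ± 161 (adjusted p = 7.6e-05). The glypicans GPC4 and GPC3 fell, from 207 ± 113 to 16.5 ± 3.63 (adjusted p = 8.7e-06) and from 33.9 ± 12.5 to 5.03 ± 7.10 (adjusted p = 0.0038). Both had also fallen at 16 cells (adjusted p = 0.031 and 0.0078).

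**Figure D3:**
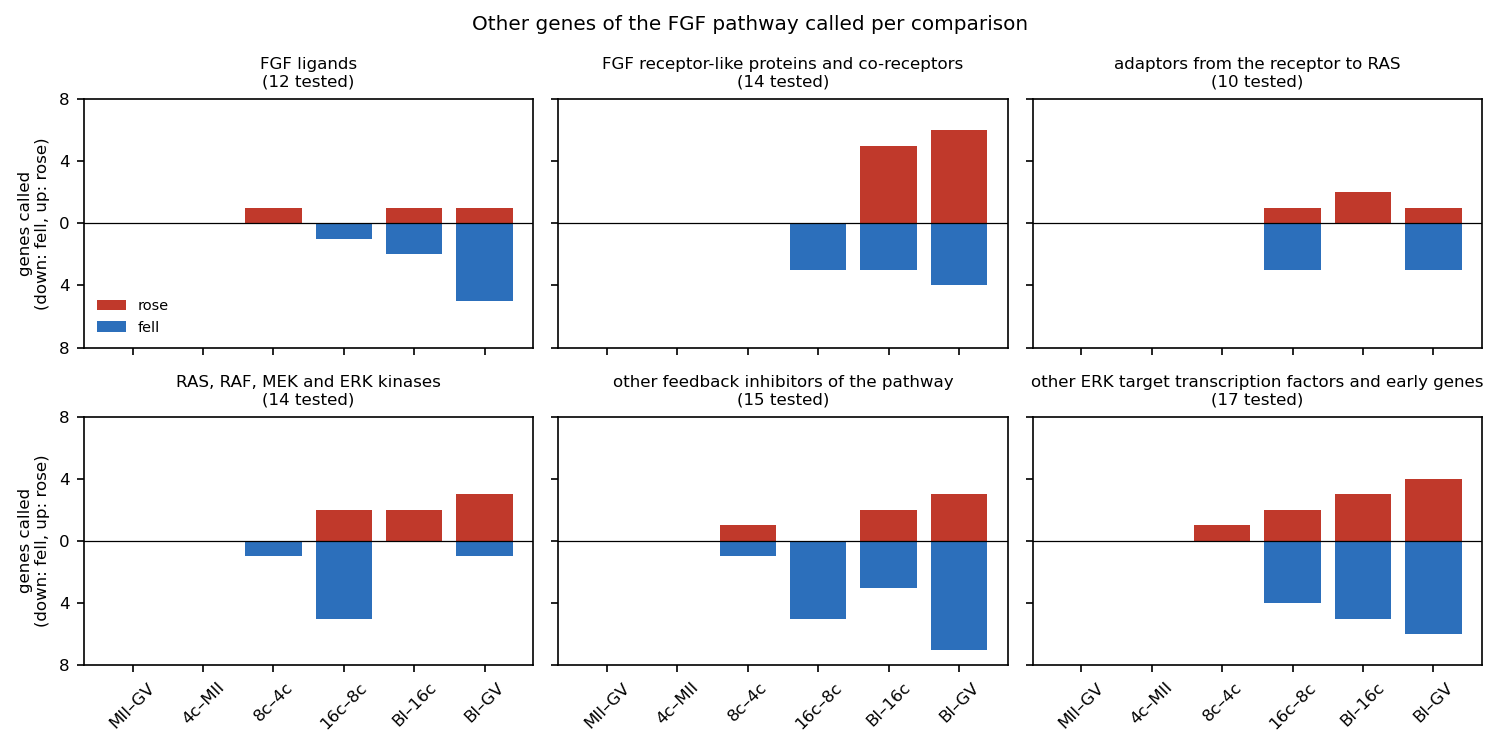
Number of other FGF pathway genes that rose (red, up) or fell (blue, down) in 6 lists (panels) and 6 comparisons of stages (horizontal axis; 4c, 8c and 16c are embryos with that number of cells, Bl is blastocyst). There are no bars in the first 2 comparisons, and 5 genes of the RAS, RAF, MEK and ERK list fell at the 16-cell stage.

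Of 10 adaptors between receptor and RAS, 3 fell and 1 rose at the 16-cell stage, where 16.3% and 14.8% of all tested genes did. Among them GAB1 fell from 999 ± 519 to 97.8 ± 79.0 (difference -3.52 ± 0.50, adjusted p = 3.5e-05), SHC1 from 1450 ± 331 to 477 ± 228 (adjusted p = 0.0021) and the phosphatase gene PTPN11 from 3456 ± 149 to 1503 ± 206 (adjusted p = 0.0013). Of 14 RAS, RAF, MEK and ERK genes and their substrate kinases 5 fell and 2 rose at that stage. BRAF fell from 1257 ± 525 to 210 ± 96.9 (adjusted p = 0.00011), while the ERK substrate kinase RPS6KA1 rose from 8.81 ± 8.04 to 97.1 ± 39.8 (adjusted p = 0.0033). The median differences of both lists were -0.66 and -0.71, beside 0.00 over all tested genes. In blastocysts against 16-cell embryos 2 adaptors rose, GAB1 to 329 ± 80.9 (adjusted p = 0.0035) and SOS1 from 1241 ± 312 to 2961 ± 419 (adjusted p = 0.0021), and 0 fell. In the kinase list 2 genes rose and 0 fell. Over all tested genes, 18.2% rose and 13.1% fell in this comparison.

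In the list of other inhibitors, 1 rose and 1 fell at 8 cells, 0 rose and 5 fell at 16 cells, and 2 rose and 3 fell in blastocysts, of 15 tested. All tested genes gave 8.64% and 4.13%, 14.8% and 16.3%, and 18.2% and 13.1% in the same order. DUSP1, a nuclear phosphatase of MAP kinases, rose at the 8-cell stage from 17.1 ± 18.2 to 1184 ± 81.9 (difference 6.43 ± 0.65, adjusted p = 4.8e-07), where DUSP6 did not pass. RASA1, which switches RAS off, fell at 8 cells from 10582 ± 2352 to 4810 ± 1759 (adjusted p = 0.011) and at 16 cells to 1280 ± 259 (adjusted p = 0.00014). DUSP7, a cytoplasmic ERK phosphatase like DUSP6, fell from 3110 ± 559 at 8 cells to 978 ± 573 at 16 cells (adjusted p = 0.00099) and 181 ± 65.9 in blastocysts (adjusted p = 6.4e-05). LGALS3, a galectin in this list whose place among the inhibitors is not established, rose in blastocysts from 58.7 ± 67.0 to 3026 ± 1988 (adjusted p = 1.7e-06). SPRY1, chosen after its values were seen, had 1648 ± 967 in GV oocytes, 889 ± 571 at 8 cells, 397 ± 187 at 16 cells and 77.2 ± 97.5 in blastocysts. It fell in blastocysts against 16-cell embryos (-2.92 ± 0.72, adjusted p = 0.0038) and against GV oocytes (-4.93 ± 0.72, adjusted p = 1.2e-05), the comparison in which SPRY4 rose.

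Among 17 ERK targets and early genes, 1 rose and 0 fell at 8 cells, 2 rose and 4 fell at 16 cells, and 3 rose and 5 fell in blastocysts against 16-cell embryos. The last comparison had 18.2% of all tested genes rising and 13.1% falling, the 16-cell stage 14.8% and 16.3%, and the 8-cell stage 8.64% and 4.13%. ETV1, a relative of ETV5, fell at 16 cells from 354 ± 73.9 to 49.9 ± 54.6 (adjusted p = 0.0011) and to 0 reads in blastocysts (at least 57.4-fold lower, adjusted p = 0.00027). ELK3, another ETS factor, fell at the same steps from 542 ± 278 to 68.2 ± 44.8 and 9.66 ± 8.98 (adjusted p = 0.00099 and 0.0032). MYC rose at 8 cells from 1.43 ± 1.32 to 925 ± 551 (adjusted p = 8.8e-06) and fell from 1148 ± 470 at 16 cells to 58.5 ± 22.9 in blastocysts (adjusted p = 0.0022). The early gene IER2 rose at 16 cells, from 14.1 ± 12.4 to 178 ± 105 (adjusted p = 0.0024), the stage of the SPRY4 rise. FOS, also chosen after its values were seen, rose in blastocysts from 21.0 ± 36.4 to 363 ± 115 (adjusted p = 0.00029).

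**Figure D4:**
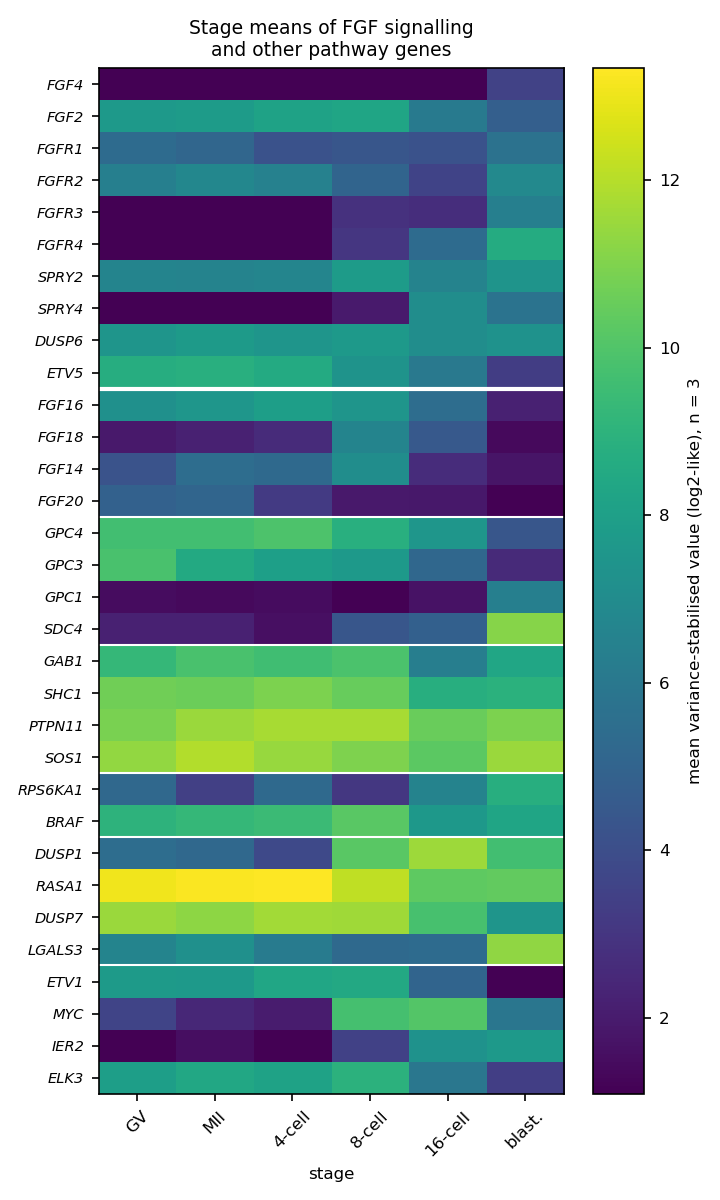
Mean variance-stabilised values (log2-like, colour, n = 3) of the 10 FGF signalling genes (above the thick line) and 22 other pathway genes in 6 blocks, 1 per list (rows) at 6 stages (columns). ETV5, ETV1, ELK3 and DUSP7 darken towards the blastocyst, while FGFR3, FGFR4, SDC4 and LGALS3 brighten.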

How the data were processed

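RNA of 18 pools was sequenced as single reads after amplification (NuGEN kit), per the labels' protocols. The authors deposited 1 table of variance-stabilised log2-like values, made with reads placed on UMD3.1, according to the submitters' processing notes. These list DESeq, HTSeq, TopHat2 2.0.3 and CASAVA 1.6 as tools, and their settings and the gene annotation were not given in the sources used here. No strand marking is described, so reads of overlapping antisense genes cannot be told apart. The transformation was inverted in closed form, and 100% of 390024 values gave whole reads (tolerance 1e-06). Size factors differed from median-of-ratios factors by at most 1.2e-14 in relative terms. FGF and Sprouty genes come in families, and HRAS, FGF9, FGF14, FGF17 and others listed by locus number were matched through RefSeq gene IDs (ARS-UCD2.0), used for names only.

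limma 3.58.1 (R 4.3.3) was fitted to the deposited values over all 18 libraries, with stage as the only term and a trend of variance on mean, for genes with at least 1 read in 3 libraries. Tests were two-sided, and the procedure was tested on simulated data. There each gene had the same mean level at all stages but the changed one. Genes without reads in several whole stages, such as SPRY4, FGFR3 and FGFR4, were therefore not covered. Same-numbered pools of the 16-cell and blastocyst stages deviated together (r = 0.108 to 0.134, each over 0.1), and differently numbered ones had r from -0.0938 to -0.0339. Over all pairs of stages, differently numbered pools reached 0.161. An r over 0.1 therefore does not establish that the numbers pair the pools. In the other consecutive stages r ran from -0.00233 to 0.202 for same-numbered pools and from -0.182 to 0.046 for differently numbered ones.

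The 10 genes and the pathway lists were chosen with earlier results of these data known. Named were all 10, up to 4 genes per list with the smallest F test p, and for SPRY4 and each of the 10 with reads in at least 9 libraries the 5 genes of highest correlation, of which the text gives the first ones. Some genes that this rule names are not reported here. Tables and figures were made in Python 3.11.15 (matplotlib 3.10.9, pandas 2.3.3). Alternatives were a replicate block, voom on the recovered reads with TMM scaling, log2 of scaled counts with pseudocounts of 1 or 8, other filters and scalings, array weights, fits to both stages alone, and leaving out each library.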

Additional observations from a re-analysis of the deposited data

How the results depend on the processing

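Of 1566 differences of single FGF genes under alternative analyses, 54 changed sign, none of them past the threshold on either side. The 0 calls between GV and MII oocytes and between MII oocytes and 4-cell embryos were found in every alternative, as were 5 or 6 calls between blastocyst and GV oocyte. At 8 cells, array weights gave 1 call (FGFR3), as did leaving out 8-cell replicate 2 and 16-cell replicate 1 together (1 call), an alternative chosen after seeing the data. Fits to the libraries of both stages alone gave 0 calls at 16 cells in place of 2 and 1 in place of 3 in blastocysts (FGFR3), with 813 and 2915 calls over all genes in place of 5337 and 5367. Without 1 library, calls ranged from 0 to 1 at 8 cells, from 2 to 3 at 16 cells, from 2 to 6 in blastocysts against 16-cell embryos (6 without 16-cell replicate 2) and from 5 to 6 over the 6 stages.

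With the replicate block, 4 genes changed in blastocysts against 16-cell embryos in place of 3 (FGFR4 added, adjusted p = 0.031), RAS to ERK genes gave 4 calls in place of 2 there and 2 in place of 1 at 8 cells, and the block changed no other call of the 10 genes. With library medians set equal, the median difference of all genes was 0.31 between GV and MII oocytes, -0.24 at 8 cells and -0.17 in blastocysts against 16-cell embryos, in place of 0.00, 0.00 and 0.18, and voom gave 0.22 in place of 0.00 at 16 cells. Equal medians gave 2408 rises and 2874 falls in place of 3117 and 2250 in blastocysts, and 1205 and 1016 at 8 cells in place of 1480 and 708. Between GV and MII oocytes 22 rose and 58 fell in place of 17 and 105, and array weights gave 848 calls in place of 122, and 1003 in place of 136 between MII oocytes and 4-cell embryos. At 8 cells array weights gave 3352 calls in place of 2188 and both stages alone 1017, and at 16 cells array weights gave 3519. FGF4 rests on 42 reads in all, and FGFR3 on 23 and 5 reads at the 8-cell and 16-cell stages. With fits to both stages alone, each pathway list had 0 or 1 calls at 16 cells, where the full fit had 1 to 7.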
